A study of Mus musculus with 23 samples.

Results

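The claudin family was followed in colon RNA of mice colonized with Bacteroides fragilis strains of low or high bile salt hydrolase activity, the enzyme that removes the amino acid from conjugated bile acids. The 10 members described, Cldn1, Cldn2, Cldn3, Cldn4, Cldn7, Cldn8, Cldn12, Cldn14, Cldn15 and Cldn23, were picked by their gene symbols from the 55449 genes of the expression table, in which 33 genes carry a claudin symbol. RNA was sequenced from male C57BL/6 mice of the genotype Cdx2Apc f/w, aged 6-8 weeks at the start and fed a high-fat diet (HFD, 60%), so that the diet, the Apc deletion and an antibiotic cocktail before colonization were shared by every group. In this model Cre recombinase under the Cdx2 promoter deletes an Apc allele in the intestinal epithelium, and tumors form mainly in the colon. BF BSHlow is the strain 638R with an empty vector (bsh-), which keeps a low activity of its own, and BF BSHhigh is 638R carrying the bsh gene of a B. fragilis strain with high activity (bsh+). Sources differ on the schedule (gavage every 3 days in the methods, 2 times a week in the labels) and on the library kit (mRNA in the methods, total RNA in the labels). Normal colon was taken after 2 weeks (4 libraries of each strain). Non-tumor colon (4 libraries of each strain) and colon tumors (4 libraries of BF BSHlow and 3 of BF BSHhigh) were taken after 12 weeks. The labels do not name the animals, so the p-values measure the spread between these samples, and which tumor and non-tumor samples came from the same mouse is not given in the sources used here. The 3 BF BSHhigh tumor columns repeat the header names of BF BSHlow tumors and were assigned as a group, because the study's own supplementary table lists their values under BF BSHhigh tumors. They are called replicates a, b and c.

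Claudins are small membrane proteins that span the membrane several times and bind claudins of the neighbouring cell to form the strands of the tight junction, the seal between epithelial cells. Which claudins a cell makes sets what passes between cells. Barrier-forming members (Cldn1, Cldn3, Cldn4, Cldn8 and Cldn14 are grouped so here) tighten the junction, while the channel-forming members Cldn2 and Cldn15 let sodium through and are known for sodium recycling in the gut. Cldn7, Cldn12 and Cldn23 were kept apart. Cldn7 is abundant along the intestine and also sits on the lateral membrane, Cldn12 is tied to calcium passage, and Cldn23 is a less studied member of differentiated intestinal epithelium. Cldn3 and Cldn4 are receptors of the enterotoxin of Clostridium perfringens, and Cldn8 is known from the distal colon, where it limits sodium leak.

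The members lie on 5 chromosomes in GRCm38. Cldn3 (chromosome 5, 134986214 to 134987472, plus strand) and Cldn4 (chromosome 5, 134945119 to 134946934, minus strand) are neighbours, 39279 bases apart. Cldn15 (136966616 to 136975858, plus) and Cldn12 (5489537 to 5514958, minus) are on chromosome 5 as well. Cldn1 (26356642 to 26371841, minus), Cldn8 (88560828 to 88563183, minus) and Cldn14 (93919031 to 94008837, minus) are on chromosome 16. Cldn7 lies on chromosome 11 (69964779 to 69967885, plus), Cldn23 on chromosome 8 (35824712 to 35826559, minus) and Cldn2 on chromosome X (139800828 to 139811386, plus). An exon of Wbscr25 on the opposite strand overlaps Cldn3, and Gm49618 lies on the strand of Cldn14 without sharing an exon. Every count of the 10 members was a whole number in all 23 libraries. RefSeq promoter windows (GRCm38.p6, 250 bases before to 50 after each start site) matched 8 of the 10 members, in 13 windows. Cldn8 and Cldn23 had none. The windows of Cldn3 and Cldn4 are shown because the order of these neighbours by level turned over in tumors, and those of Cldn2 and Cldn15 because they are the channel-forming pair. They are chrX:139800558-139800857 (Cldn2, plus), chr5:134985964-134986263 (Cldn3, plus), chr5:134946885-134947184 (Cldn4, minus) and chr5:136967619-136967918 (Cldn15, plus). Each is written 5′ to 3′ on the strand of the gene, with motif matches in capitals.
Cldn2: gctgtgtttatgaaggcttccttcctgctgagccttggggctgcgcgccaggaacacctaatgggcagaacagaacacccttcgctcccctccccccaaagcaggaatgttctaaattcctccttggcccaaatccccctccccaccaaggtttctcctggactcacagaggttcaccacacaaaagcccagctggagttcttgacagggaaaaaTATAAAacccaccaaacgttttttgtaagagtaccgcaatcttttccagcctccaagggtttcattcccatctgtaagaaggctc
Cldn3: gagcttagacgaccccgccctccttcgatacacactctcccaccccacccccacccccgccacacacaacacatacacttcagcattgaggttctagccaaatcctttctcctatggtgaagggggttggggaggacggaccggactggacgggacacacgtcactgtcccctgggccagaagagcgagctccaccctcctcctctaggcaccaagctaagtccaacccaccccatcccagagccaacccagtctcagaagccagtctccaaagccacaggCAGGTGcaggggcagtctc
Cldn4: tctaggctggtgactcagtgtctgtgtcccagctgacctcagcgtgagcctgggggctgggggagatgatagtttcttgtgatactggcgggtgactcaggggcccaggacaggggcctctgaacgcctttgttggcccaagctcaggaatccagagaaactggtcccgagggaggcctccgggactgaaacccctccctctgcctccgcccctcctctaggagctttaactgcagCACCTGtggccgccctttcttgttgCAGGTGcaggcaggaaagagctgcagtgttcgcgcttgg
Cldn15: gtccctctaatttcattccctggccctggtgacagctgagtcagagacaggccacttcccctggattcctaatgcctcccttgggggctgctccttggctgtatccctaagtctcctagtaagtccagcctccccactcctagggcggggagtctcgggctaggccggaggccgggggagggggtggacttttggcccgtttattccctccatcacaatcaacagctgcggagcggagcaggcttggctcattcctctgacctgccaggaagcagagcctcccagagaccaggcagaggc
Letters were searched on both strands for a TATA box (TATAAA), a core site of the TCF/LEF factors that act with β-catenin (CTTTGA) and the E-box bound by the SNAI and ZEB factors (CACCTG, which reads CAGGTG on the other strand). TATAAA was in 13.6% of the 32851 windows of all genes and in 1 of the 13 claudin windows, that of Cldn2, with its first base 35 before the start site. CTTTGA was in 16% of all windows and in 0 of the 13. Other spellings of the TCF/LEF site were not searched, so this 0 covers CTTTGA alone. The window of Cldn4, for example, holds the letters CTTTGTT. The E-box was in 20.2% of all windows and in 4 of the 13, those of Cldn3 (first base 32 after the start), Cldn4 (14 before and 12 after), Cldn7 and Cldn14. A match describes letters and not a bound site.

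The 23 libraries held 12401388 to 17903008 expected counts, with a median of 15874872. Levels are in CPM (counts scaled to a common library size), corrected over all libraries by TMM, a scaling that takes most genes as unchanged, and levels of different genes were set side by side only per kilobase of exon. Apc, the gene deleted in this model, was at 87.7 to 190 CPM in non-tumor libraries, at 8.75 to 12.3 CPM in BF BSHlow tumors and at 25.1, 28.6 and 12.5 CPM in BF BSHhigh tumors a, b and c. The summed CPM of 10 epithelial markers was 17758 to 23994 at 2 weeks, 13519 to 17940 in non-tumor colon, 4815 to 8928 in BF BSHlow tumors and 6868 to 10398 in BF BSHhigh tumors. The 10 did not move together. In BF BSHlow mice mean Lgals4 was 4233 CPM in non-tumor colon and 568 CPM in tumors, and Krt20 525 and 21.7 CPM. Epcam was at 1453 and 1032 CPM. In BF BSHhigh mice Krt18 was higher in tumors (log2 fold change 1.14, adjusted p = 0.000332 in edgeR). Scaling by these markers, used below, takes in such changes of single markers. Markers of smooth muscle (8 genes, 8.45 to 233 CPM at 2 weeks and 1690 to 9368 in non-tumor colon) and of the distal colon (6 posterior Hox genes, 6.90 to 94.9 and 429 to 831 CPM) set the 12-week non-tumor libraries apart from the 2-week ones. Tumors had 140 to 390 CPM of the smooth muscle markers. Markers of squamous epithelium (8 genes) were at 4.58 to 14.8 CPM in non-tumor colon, 69.9 to 226 CPM in BF BSHlow tumors and 36.9 to 58.9 CPM in BF BSHhigh tumors, higher in every BF BSHlow than in any BF BSHhigh tumor, as Cldn4 was. Their part in the tumor contrasts was not tested. In bulk tissue, fewer epithelial cells and less claudin RNA per cell cannot be told apart.

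In non-tumor and normal colon, Cldn7 and Cldn3 made up most of the claudin RNA, and in tumors Cldn4 took their place at the top. Per kilobase, Cldn7 held 41.6% and 41.8% of the summed claudin level at 2 weeks (BF BSHlow and BF BSHhigh) and 42.7% and 40.0% in non-tumor colon, and Cldn3 held between 30.1% and 35.3% of it in these groups. Cldn4 held 3.22% ± 1.62 (SD, n = 4) in BF BSHlow non-tumor colon and 2.70% ± 0.893 (SD, n = 4) in BF BSHhigh non-tumor colon. In tumors its share was 47.4% ± 3.18 (SD, n = 4) for BF BSHlow and 34.7% ± 5.03 (SD, n = 3) for BF BSHhigh, against 24.1% ± 1.97 and 29.3% ± 2.78 for Cldn7. The channel-forming Cldn15 held 10.8% and 9.72% at 2 weeks, 4.22% and 6.02% in non-tumor colon and 0.141% and 1.05% in tumors. Cldn2, the other channel, held 3.53% to 10.6% over the 6 groups. Cldn1 and Cldn14 were the rarest of the 10, with at most 0.122% and 0.673% of the sum in any group.

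The summed level of the 10 claudins per kilobase, in CPM, was 693 ± 50.4 in BF BSHlow non-tumor colon and 753 ± 147 in BF BSHlow tumors (SD, n = 4 each), and 733 ± 65.5 (SD, n = 4) and 725 ± 77.7 (SD, n = 3) for BF BSHhigh. At 2 weeks it was higher, 1052 ± 112 and 1116 ± 72.9 (SD, n = 4 each). The ratio of tumor to non-tumor sums was thus 1.09 and 0.99 (BF BSHlow and BF BSHhigh), but 1.35 and 1.22 when libraries were scaled by size and 2.48 and 1.89 when they were scaled by epithelial markers, which sets the summed counts of the 10 markers equal in every library. The shares, which the plot of shares by group shows, do not depend on the scaling. Sums and shares are descriptions without a test.

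**Figure D1:**
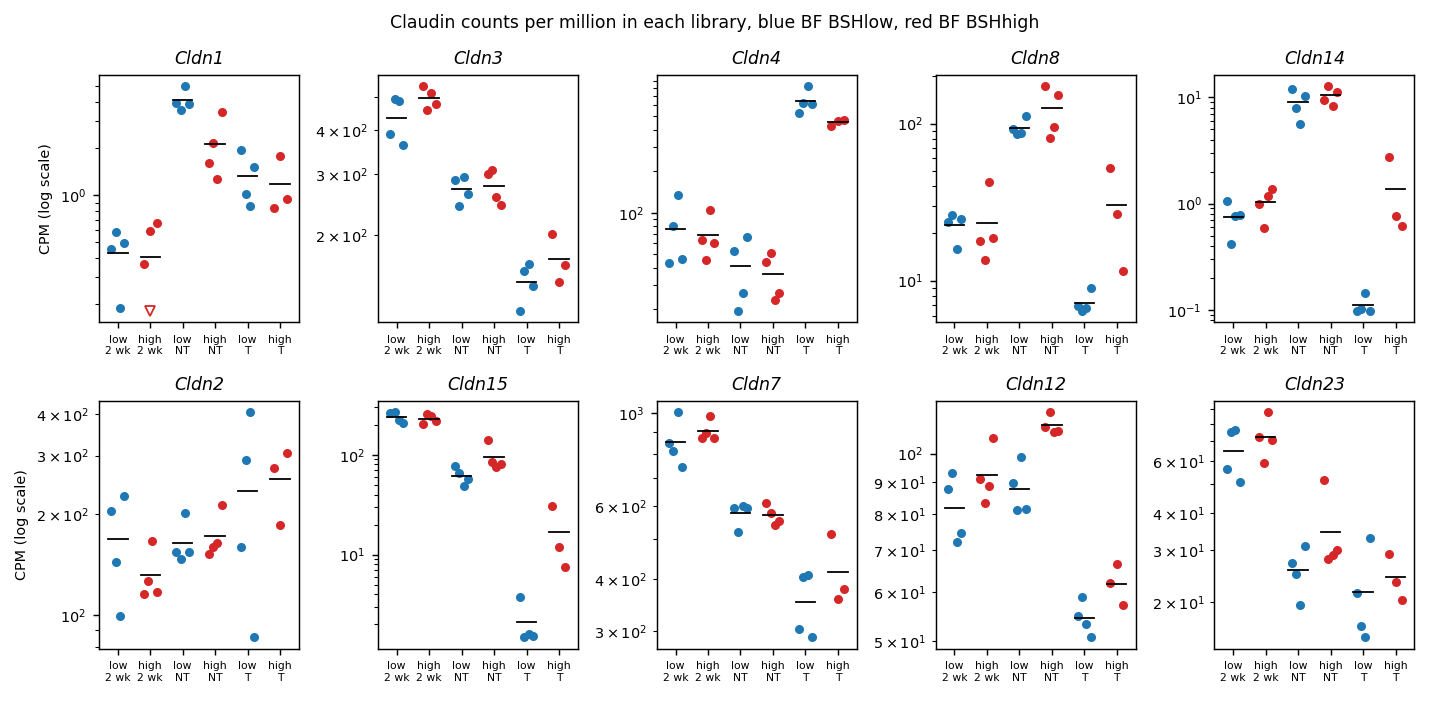
Level of each of the 10 claudins in every library (CPM, log axis), with the 6 groups side by side (blue BF BSHlow, red BF BSHhigh, NT non-tumor, T tumor), a line at each group mean and an open triangle for a library at 0. Cldn4 is highest in the tumors, Cldn15, Cldn14 and Cldn8 are lowest in BF BSHlow tumors, and Cldn2 overlaps between neighbouring groups throughout.

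**Figure D2:**
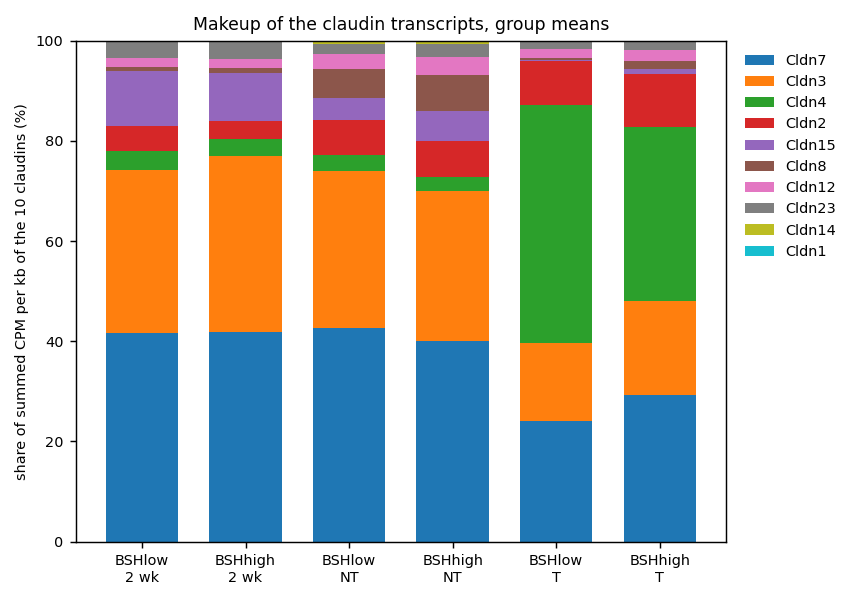
Share of each claudin in the summed claudin level per kilobase (percent, group means, bars start at 0) in the 6 groups. Cldn4 is 3.22% and 2.70% of the sum in the non-tumor groups and 47.4% and 34.7% in the tumor groups.

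Tumors were compared with non-tumor colon within each strain, which asks how the claudins differ between tumor and surrounding tissue. A gene was called, and is said here to have risen or fallen, at an adjusted p under 0.05 from edgeR over all genes tested. In BF BSHlow mice 1 claudin rose (Cldn4) and 7 fell (Cldn1, Cldn3, Cldn7, Cldn8, Cldn12, Cldn14 and Cldn15) of the 10, with the sign of Cldn3, Cldn7 and Cldn12 turned under scaling by epithelial markers. All 10 passed the filter on low counts. Of the 16454 genes tested, 33.3% rose and 32.2% fell in the same comparison. With BF BSHhigh, Cldn4 rose and 6 claudins fell (those named without Cldn1, and with the same signs turned under that scaling), where 29.4% of all genes rose and 27.2% fell. Cldn2 and Cldn23 were not called in either strain by TMM with all libraries, while Cldn2 was called higher in both strains by library size and by epithelial markers, and Cldn23 in BF BSHlow mice by epithelial markers. The median of all genes moved up under both of these scalings as well. The groups did not overlap for 8 of the 10 members in BF BSHlow mice, where 57% of all genes tested did not overlap, and for 7 in BF BSHhigh mice, where 61.1% did not. The median log2 fold change of the 10 was -0.82 and -0.77 (BF BSHlow and BF BSHhigh), beside 0.04 over all genes in each strain.

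Cldn4, a barrier-forming claudin, was at 52.5, 19.5, 26.3 and 66.5 CPM in the BF BSHlow non-tumor libraries and at 525, 624, 829 and 612 CPM in the BF BSHlow tumors. With BF BSHhigh it was at 44.4, 51.5, 23.2 and 26.3 CPM in non-tumor colon and at 427, 460 and 471 CPM in tumors. Every tumor was far above every non-tumor and every 2-week library, where the level reached at most 135 CPM. The mean was 15.7-fold higher in BF BSHlow tumors and 12.5-fold higher in BF BSHhigh tumors, with log2 fold changes of 3.95 ± 0.38 (SE, adjusted p = 7.24e-07 in edgeR) and 3.63 ± 0.39 (adjusted p = 4.37e-06 in edgeR). Its neighbour Cldn3 did not share this rise. Cldn3 was at 243 to 294 CPM in BF BSHlow non-tumor colon and 121 to 166 CPM in the tumors, and at 245 to 307 and 147 to 202 CPM in BF BSHhigh mice, without overlap. The log2 fold changes of Cldn3 were -0.91 ± 0.12 (adjusted p = 1.48e-05 in edgeR) and -0.70 ± 0.13 (adjusted p = 0.000436 in edgeR), and their sign turned to 0.32 and 0.23, neither called, when libraries were scaled by epithelial markers. Within each library the ratio of Cldn4 to Cldn3 per kilobase does not depend on the scaling. It was 0.0556 to 0.176 in the 8 non-tumor libraries, 2.74 to 3.47 in BF BSHlow tumors and 1.47 to 2.17 in BF BSHhigh tumors.

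Cldn8 and Cldn14, both barrier-forming, fell in tumors of both strains and fell further by point estimate in BF BSHlow mice. Cldn8 was at 92.8, 86.2, 86.9 and 111 CPM in BF BSHlow non-tumor colon and at 6.87, 6.41, 6.73 and 8.99 CPM in the tumors, 13.0-fold lower by means (log2 fold change -3.72 ± 0.39, adjusted p = 1.41e-06 in edgeR). In BF BSHhigh mice Cldn8 was at 174, 81.4, 95.2 and 151 CPM in non-tumor colon and at 52.3, 26.7 and 11.5 CPM in tumors a, b and c, 4.15-fold lower (-2.06 ± 0.39, adjusted p = 0.000519 in edgeR). The BF BSHlow tumors lie within a narrow band, while the BF BSHhigh tumors spread between that band and the non-tumor level. Cldn14, a claudin known from the inner ear and kidney, was far rarer. In BF BSHlow mice it was at 11.9, 7.96, 5.66 and 10.2 CPM in non-tumor colon and had 2, 2, 3 and 2 counts in the 4 tumors (0.0982, 0.103, 0.143 and 0.0977 CPM). The pooled counts, 541 against 9, gave a ratio of 80.0 (95% exact interval 41.8 to 176, which covers counting error only). With BF BSHhigh, Cldn14 was at 9.44, 12.8, 8.37 and 11.2 CPM in non-tumor colon and at 2.74, 0.759 and 0.620 CPM in tumors. Here the pooled counts were 645 against 83, a ratio of 7.87 (6.25 to 10). The log2 fold changes of Cldn14 were -6.27 ± 0.52 (adjusted p = 1.86e-07 in edgeR) and -2.94 ± 0.45 (adjusted p = 8.16e-05 in edgeR). Cldn1 was rare in every library. It was at 3.55 to 5.05 CPM in BF BSHlow non-tumor colon and 0.859 to 1.96 CPM in the tumors, and fell (-1.62 ± 0.37, adjusted p = 0.00148 in edgeR). For BF BSHhigh mice Cldn1 was at 1.27 to 3.44 and 0.828 to 1.79 CPM, which overlap (-0.83 ± 0.41, adjusted p = 0.0946 in edgeR). Under scaling by epithelial markers Cldn1 was no longer called in BF BSHlow mice (-0.28, adjusted p = 0.594 in edgeR).

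The channel-forming claudins parted. Cldn15 was at 76.4, 65.0, 48.5 and 57.0 CPM in BF BSHlow non-tumor colon and at 3.78, 1.49, 1.62 and 1.52 CPM in the tumors. With BF BSHhigh it was at 139, 83.7, 75.7 and 81.0 CPM in non-tumor colon and at 30.5, 12.1 and 7.54 CPM in tumors. No tumor reached the non-tumor range, and no BF BSHlow tumor reached the lowest BF BSHhigh tumor. Cldn15 fell 29.4-fold by means in BF BSHlow mice (log2 fold change -4.88 ± 0.45, adjusted p = 4.9e-07 in edgeR) and 5.68-fold in BF BSHhigh mice (-2.52 ± 0.43, adjusted p = 0.000229 in edgeR). Cldn2 was at 147 to 202 CPM in BF BSHlow non-tumor colon and 85.7 to 405 CPM in the tumors. Its log2 fold changes were 0.50 ± 0.34 (adjusted p = 0.214 in edgeR) and 0.56 ± 0.36 (adjusted p = 0.205 in edgeR). Cldn2 was called higher in the tumors of both strains by library size (0.81, adjusted p = 0.0407, and 0.86, adjusted p = 0.0454, in edgeR) and by epithelial markers (1.57, adjusted p = 2.2e-05, and 1.5, adjusted p = 0.000112, in edgeR). The median of all genes moved up with these scalings. Less that median, Cldn2 was at 0.46 by TMM, 0.44 by library size and 0.29 by epithelial markers in BF BSHlow mice. In BF BSHhigh mice it was at 0.52, 0.51 and 0.50. The ratio of Cldn2 to Cldn15 per kilobase within a library was 0.283 to 0.694 at 2 weeks, 0.701 to 2.66 in non-tumor colon, 26.9 to 159 in BF BSHlow tumors and 5.76 to 25.9 in BF BSHhigh tumors. So in every tumor Cldn2 was the more abundant channel, and in every 2-week library it was Cldn15.

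Cldn7 and Cldn12 fell by less, and their sign turned under scaling by epithelial markers. By library size Cldn12 was still called lower in both strains (-0.37, adjusted p = 0.00172, and -0.54, adjusted p = 0.000242, in edgeR). Cldn7 was called lower by library size in BF BSHlow mice (-0.40, adjusted p = 0.00448 in edgeR). Cldn7 was at 518 to 601 CPM in BF BSHlow non-tumor colon and 290 to 410 CPM in the tumors (log2 fold change -0.73 ± 0.13, adjusted p = 0.000241 in edgeR). In BF BSHhigh mice it was at 539 to 610 CPM and at 512, 359 and 378 CPM in tumors a, b and c (-0.46 ± 0.14, adjusted p = 0.0144 in edgeR), and it was not called by library size (-0.16, adjusted p = 0.261), without tumor b (adjusted p = 0.0828) or without tumor c (adjusted p = 0.0732). Cldn12 was at 81.3 to 98.9 CPM in BF BSHlow non-tumor colon and at 50.8 to 59.0 CPM in the tumors (-0.70 ± 0.08, adjusted p = 2.88e-06 in edgeR). The BF BSHhigh ranges of Cldn12 were 108 to 117 and 57.3 to 66.4 CPM (-0.85 ± 0.09, adjusted p = 2.94e-06 in edgeR). Under scaling by epithelial markers Cldn7 and Cldn12 went to 0.47 and 0.54 in BF BSHlow mice and to 0.46 and 0.11 in BF BSHhigh mice, and the median of all genes moved by 1.24 and 0.96. Relative to that median they were lower, at -0.81 and -0.74 in BF BSHlow mice and -0.54 and -0.89 in BF BSHhigh mice. Cldn23 was at 19.6 to 31.0 CPM in BF BSHlow non-tumor colon and 15.2 to 32.9 CPM in the tumors (-0.27 ± 0.26, adjusted p = 0.382 in edgeR). Its sign turned to 1.09 under scaling by epithelial markers, where it was called (adjusted p = 0.01 in edgeR). Less the median of all genes it was at -0.19 there. Without BF BSHlow tumor 4 it was called lower by TMM (-0.56, adjusted p = 0.0475 in edgeR).

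**Figure D3:**
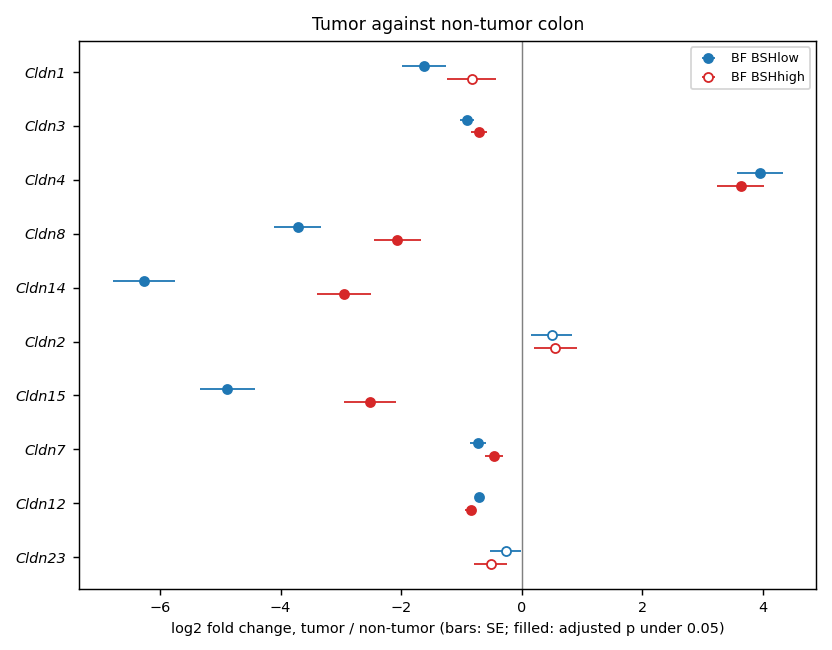
Log2 fold change of tumor against non-tumor colon for each claudin in BF BSHlow and BF BSHhigh mice (edgeR estimate, bars 1 SE, filled points called at an adjusted p under 0.05). Cldn4 is at 3.95 and 3.63 (BF BSHlow and BF BSHhigh), and Cldn14 (-6.27 and -2.94), Cldn15 (-4.88 and -2.52) and Cldn8 (-3.72 and -2.06) lie lower in BF BSHlow mice.

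The other genes of the junction were followed in lists set by name. Of 30 tight junction genes that are not claudins, 3 rose and 14 fell in BF BSHlow tumors, and 3 rose and 12 fell in BF BSHhigh tumors, but under scaling by epithelial markers 20 rose and 3 fell, and 18 rose and 0 fell. Of all genes, 69.7% rose and 10.6% fell under that scaling in BF BSHlow tumors, and 61.2% rose and 7.89% fell in BF BSHhigh tumors. Their median log2 fold change by TMM was -0.32 and -0.31, beside 0.04 over all genes. Ildr1 (angulin-2, which seals the corners where 3 cells meet) fell in BF BSHlow tumors by 2.37 on the log2 scale, and by 1.05 under scaling by epithelial markers. Ocln (occludin) was at -1.31 and -1.18, called by TMM, and at -0.07 and -0.22, not called, by epithelial markers. Arhgef2, a RhoA activator held at the junction, rose by 1.22 and 0.90. Of 16 adherens junction and desmosome genes, 5 rose and 7 fell in BF BSHlow tumors and 2 rose and 7 fell in BF BSHhigh tumors, while by epithelial markers 12 and 10 rose and none fell (edgeR). Nectin4 rose by 2.75 and 2.00 and Ctnnb1 (β-catenin) by 0.81 and 0.56. Of 11 genes that cleave or regulate claudins or the junction, 3 rose and 7 fell in BF BSHlow tumors and 2 rose and 7 fell in BF BSHhigh tumors, against 5 and 1, and 5 and 0, by epithelial markers. The membrane protease Tmprss2 fell by 1.58 and 1.25, with estimates of -0.36 and -0.33 by epithelial markers. Klhl3, an adaptor of a ubiquitin ligase that acts on WNK kinases and Cldn8, rose by 1.25 and 1.33.

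Whether the tumor contrast differed between the strains was tested by the interaction term of the same fit of 15 libraries. It was called for 1 of the 10 claudins, where 0.978% of all genes were called with a higher and 0.0122% with a lower value in BF BSHhigh mice. For Cldn14 the fall in tumors was smaller in BF BSHhigh mice by 3.32 ± 0.66 on the log2 scale (adjusted p = 0.0272 in edgeR). This call rested on single libraries, since it was lost without any 1 of 9 of the 15 libraries (adjusted p up to 0.077) and in limma-voom (2.77, adjusted p = 0.228), and kept without any 1 of the other 6. The estimates of Cldn15 (2.36 ± 0.58, adjusted p = 0.0759 in edgeR) and Cldn8 (1.65 ± 0.51, adjusted p = 0.207 in edgeR) had the same sign and were not called. For Cldn15 the interaction was called without BF BSHhigh tumor c (2.74, adjusted p = 0.0113) and without BF BSHlow tumor 1 (2.81, adjusted p = 0.0359). The other 7 claudins had adjusted p-values of at least 0.739.

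In tumors alone, BF BSHhigh was compared with BF BSHlow, which asks what the bacterial enzyme activity changes there. None of the 10 claudins was called, where 0.47% of the 15325 genes tested were higher and 0.0392% were lower, although 4 had an unadjusted p under 0.05 (12.7% of all genes did) and these 4 did not overlap between the groups (11.8% of all genes did not). Cldn14, Cldn15 and Cldn8 were higher in all 3 BF BSHhigh tumors than in any BF BSHlow tumor, and Cldn4 was lower. The mean of Cldn14 was 12.4-fold higher (log2 fold change 3.55 ± 0.66, adjusted p = 0.0588 in edgeR). Its pooled counts, 83 against 9, gave a ratio of 12.0 (95% exact interval 6.00 to 27.1, for counting error only). Tumor a alone held 53 of the 83. With 2 or 3 counts in each BF BSHlow tumor, Cldn14 passed the filter on low counts only through the BF BSHhigh tumors, where it is high. Its place among the 4 is thus not independent of that difference. Cldn15 was 7.95-fold higher by means (2.97 ± 0.55, adjusted p = 0.0585 in edgeR) and Cldn8 4.16-fold (2.04 ± 0.44, adjusted p = 0.0846 in edgeR). These 3 had adjusted p-values near the threshold, and settings decided on which side they fell. DESeq2 called all 4 (adjusted p from 4.21e-06 to 0.0278). Leaving out BF BSHhigh tumor c gave edgeR calls for Cldn14 (0.0388), Cldn15 (0.0296) and Cldn8 (0.0134), while leaving out BF BSHhigh tumor a gave 0.152, 0.174 and 0.227. Cldn4 was 1.43-fold lower in BF BSHhigh tumors by means (-0.52 ± 0.15, adjusted p = 0.192 in edgeR). The other 6 had log2 fold changes between -0.19 (Cldn1) and 0.23 (Cldn7), with adjusted p-values of at least 0.468.

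Among the 3 BF BSHhigh tumors the claudins that were higher had the same order, a above b above c, for Cldn8 (52.3, 26.7 and 11.5 CPM), Cldn14 (2.74, 0.759 and 0.620 CPM) and Cldn15 (30.5, 12.1 and 7.54 CPM). Markers of differentiated epithelium had that order too, as did the smooth muscle markers (390, 256 and 211 CPM in a, b and c). Other marker sums did not. The epithelial markers were at 10398, 6868 and 6917 CPM in a, b and c, and the posterior Hox genes at 259, 362 and 265 CPM. Markers of WNT targets and the crypt base were at 1207, 1716 and 1540 CPM. With only 3 tumors, a shared order can arise by chance. The summed level of 7 goblet cell markers was 4549, 1390 and 619 CPM in tumors a, b and c, 113 to 163 CPM in BF BSHlow tumors and 12633 to 34135 CPM in non-tumor colon. The summed level of 7 colonocyte markers was 385, 123 and 87.9 CPM in a, b and c, 40.1 to 118 CPM in BF BSHlow tumors and 1611 to 4325 CPM in non-tumor colon. This sum does not stand for each marker. The log2 fold changes between the strains in tumors ran from 0.003 (Car1) to 6.78 (Slc13a2). Mean Slc26a3 was 0.249 CPM in BF BSHlow and 19.4 CPM in BF BSHhigh tumors. Of these markers, 2 of 7 for goblet cells and 3 of 7 for colonocytes were called higher in BF BSHhigh tumors, and no defining marker was at 0 in all libraries of a group. The part of these cells in the claudin differences was not tested. Cldn4 had the reverse order, with 427, 460 and 471 CPM in tumors a, b and c. None of the 30 other tight junction genes, the 16 adherens junction genes or the 11 regulators was called between the strains in tumors.

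**Figure D4:**
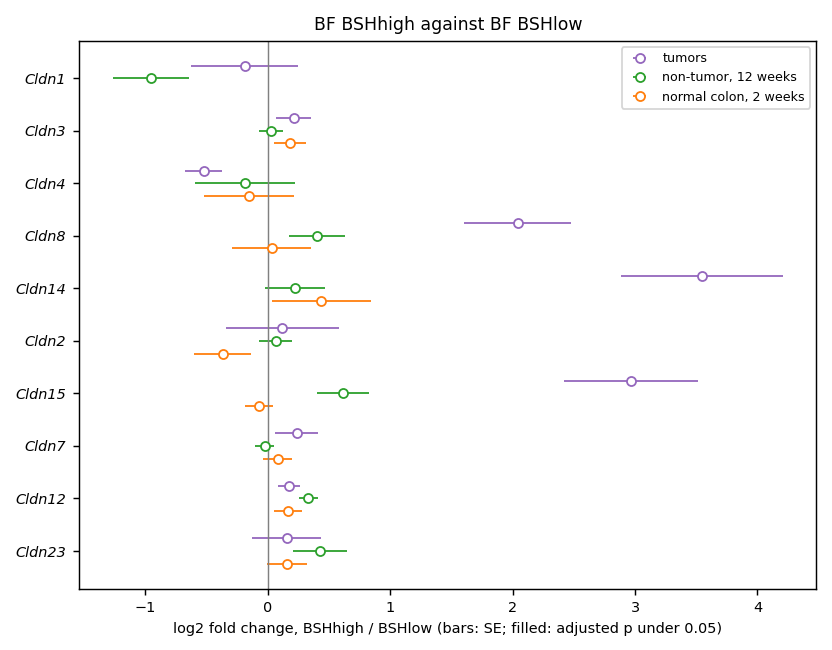
Log2 fold change of BF BSHhigh against BF BSHlow for each claudin in 2-week normal colon, non-tumor colon and tumors (edgeR estimate, bars 1 SE, open points not called, Cldn1 not tested at 2 weeks). No point was called, and the estimates of Cldn14, Cldn15 and Cldn8 in tumors (3.55, 2.97 and 2.04) stand apart from those in the other tissues.

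**Figure D5:**
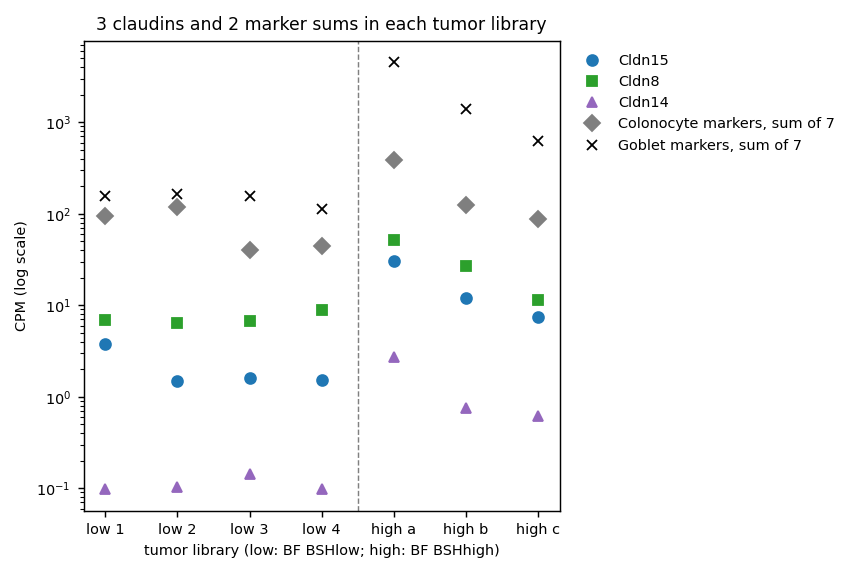
Levels of Cldn8, Cldn14 and Cldn15 in each of the 7 tumors (CPM, log axis) beside the summed goblet cell and colonocyte markers of the same libraries. BF BSHhigh tumors a, b and c descend in all 3 claudins (Cldn15 from 30.5 to 7.54 CPM) and in both marker sums (goblet cell markers from 4549 to 619 CPM).

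In non-tumor colon at 12 weeks none of the 10 claudins was called between the strains, where 0% of the 14933 genes tested were called higher and 0% lower in edgeR, and 1377 of them (9.22%) had an unadjusted p under 0.05. Of the claudins, 3 had such a p and 2 did not overlap, where 5.38% of all genes did not. Cldn12 was at 89.6, 81.3, 98.9 and 81.4 CPM in BF BSHlow and at 110.3, 117, 108 and 109 CPM in BF BSHhigh non-tumor colon, so every BF BSHhigh library was higher (log2 fold change 0.33 ± 0.08, adjusted p = 0.328 in edgeR). DESeq2, which called 194 genes here, called Cldn12 (0.34, adjusted p = 0.0145). Cldn1 was at 3.93, 3.55, 5.05 and 3.87 CPM in BF BSHlow and at 1.63, 2.18, 1.27 and 3.44 CPM in BF BSHhigh non-tumor colon, so every BF BSHhigh library was lower (-0.95 ± 0.31, adjusted p = 0.442 in edgeR). Cldn15 overlapped (0.61 ± 0.21, adjusted p = 0.463 in edgeR), and its highest value, 139 CPM, was in BF BSHhigh library 1, which also had the highest goblet marker sum. The other 7 had adjusted p-values of at least 0.606. The non-tumor libraries of this comparison are also those of the tumor contrasts.

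In normal colon after 2 weeks none of the 9 claudins tested was called, where 0.00727% of the 13752 genes tested (1 gene) were called higher in BF BSHhigh and 0% lower. Cldn1, with 0 to 0.668 CPM, did not pass the filter on low counts. None of the 9 had an unadjusted p under 0.05 in edgeR (6.8% of all genes did), and the groups overlapped for all 10 (3.64% of all genes did not). The log2 fold changes ran from -0.37 ± 0.23 (Cldn2) to 0.44 ± 0.41 (Cldn14), with adjusted p-values of at least 0.835. Whether the strain contrast differed between 12 weeks of non-tumor colon and 2 weeks was tested by an interaction term over 16 libraries. It was called for 0 of the 10 claudins, as for 0% of all genes in either direction in edgeR (1135, or 7.31%, had an unadjusted p under 0.05). For Cldn15 the term was 0.70 ± 0.25 (adjusted p = 0.545 in edgeR), the only claudin with an unadjusted p under 0.05.

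Non-tumor colon at 12 weeks was also set against normal colon at 2 weeks within each strain. The time of feeding and colonization, the state of the tissue and the piece of colon cannot be told apart in this comparison, and the smooth muscle and Hox markers given above moved with it. In BF BSHlow mice 3 claudins were higher at 12 weeks (Cldn14, Cldn1 and Cldn8) and 4 lower (Cldn15, Cldn23, Cldn3 and Cldn7), where 25.6% of the 15532 genes tested were higher and 23.5% lower. With BF BSHhigh, 4 were higher (these and Cldn12) and the same 4 lower, where 27% of genes were higher and 22.7% lower. Among the barrier-forming members, Cldn8 was at 15.9 to 26.0 CPM at 2 weeks and 86.2 to 111 CPM at 12 weeks in BF BSHlow mice (log2 fold change 2.05 ± 0.31, adjusted p = 8.55e-05 in edgeR) and at 13.6 to 42.6 and 81.4 to 174 CPM in BF BSHhigh mice (2.43 ± 0.32, adjusted p = 2.17e-05 in edgeR). Cldn14 was at 0.417 to 1.36 CPM in the 8 libraries of 2 weeks and 5.66 to 12.8 CPM in the 8 of 12 weeks (3.54 ± 0.32, adjusted p = 9.01e-07, and 3.34 ± 0.31, adjusted p = 1.24e-06, in edgeR). Cldn3 was lower at 12 weeks by 0.68 ± 0.12 and 0.83 ± 0.12 in size, at adjusted p = 0.000228 and 4.53e-05 in edgeR. Cldn1 had 22 and 21 counts in all at 2 weeks and 249 and 128 at 12 weeks. The ratios were 9.25 (5.97 to 15) and 4.97 (3.12 to 8.31), with 95% exact intervals for counting error only. With at most 9 counts in a 2-week library, Cldn1 passed the filter on low counts through the 12-week libraries. Its call in BF BSHhigh mice (2.35, adjusted p = 0.00209 in edgeR) was lost with a replicate block (adjusted p = 0.0574).

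The channel-forming Cldn15 was at 205 to 268 CPM at 2 weeks and 48.5 to 139 CPM at 12 weeks, without overlap in either strain (-1.97 ± 0.18, adjusted p = 1.03e-06, and -1.27 ± 0.18, adjusted p = 4.23e-05, in edgeR). Cldn2 overlapped in both strains (-0.05 and 0.40, neither called by TMM), and it was called higher in BF BSHhigh mice by library size (0.68, adjusted p = 0.0258 in edgeR) and by epithelial markers (0.87, adjusted p = 0.00114 in edgeR). Less the median of all genes, this BF BSHhigh estimate was 0.37 by TMM, 0.37 by library size and 0.39 by epithelial markers. Cldn7 was lower at 12 weeks (-0.57 ± 0.10 and -0.66 ± 0.10), and under scaling by epithelial markers it was not called in BF BSHhigh mice (-0.21, adjusted p = 0.0855 in edgeR). Cldn23 was at 50.9 to 87.9 CPM at 2 weeks and 19.6 to 51.6 CPM at 12 weeks (-1.35 ± 0.21, adjusted p = 0.000101, and -1.06 ± 0.21, adjusted p = 0.000637, in edgeR). The higher level of Cldn12 in BF BSHhigh mice (0.27 ± 0.10, adjusted p = 0.0284 in edgeR) was small and was lost when any 1 of 5 of the 8 libraries was left out (adjusted p up to 0.0894). Over the 3 tissues, the levels of Cldn15 and of Cldn3 and Cldn7 stepped down from 2 weeks to non-tumor colon to tumors by TMM, without overlap between tissues in each strain, though for Cldn3 and Cldn7 the second step turned under scaling by epithelial markers. Cldn8 and Cldn14 were instead highest in 12-week non-tumor colon, where each of the 8 libraries was above every 2-week and tumor library.

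Of the 23 other genes with a claudin symbol, 9 had 0 counts in all libraries, and only Cldn5, Cldn6 and Cldn10 reached a group mean of 1 CPM. Cldn6, a claudin of embryonic epithelium, had 0 counts in every 2-week library, which allows up to 3 counts in each, and was at 2.10 to 16.3 CPM in BF BSHlow tumors and 1.34 to 5.09 CPM in BF BSHhigh tumors. Its pooled counts in tumor and non-tumor colon were 607 and 12 in BF BSHlow mice, a ratio of 38.0 (21.6 to 74.0), and 215 and 6 in BF BSHhigh mice, a ratio of 35.4 (16 to 97.5). Cldn6 rose in both strains (5.19 ± 1.0, adjusted p = 0.000403, and 5.02 ± 1.11, adjusted p = 0.00162, in edgeR). Cldn18, known from stomach and lung, was named after its values were seen and also rose in both strains. In BF BSHlow mice its pooled counts were 51 in tumors and 2 in non-tumor colon, a ratio of 19.2 (5.04 to 163), and no library had more than 1.03 CPM. Cldn6 and Cldn18 passed the filter on low counts through the tumors, where they are high. A non-tumor library held at most 10 counts of Cldn6 and 1 of Cldn18. The exact intervals of both cover counting error only. Cldn5, the claudin of blood vessels, was not called in tumors of either strain by TMM. At 12 against 2 weeks it was higher in both strains (1.87 and 2.84). Cldn10 had at most 41 counts in a library. It fell in BF BSHhigh tumors from 0.5 to 2.55 CPM in non-tumor colon to 0.0517 to 0.429 CPM (-2.58 ± 1.0, adjusted p = 0.04 in edgeR), a call lost by library size (adjusted p = 0.0645) and by epithelial markers (adjusted p = 0.195). At 12 against 2 weeks Cldn10 was higher in BF BSHlow mice (3.02 ± 1.05, adjusted p = 0.0261 in edgeR), with 1.97 ± 0.80 (adjusted p = 0.0524 in edgeR) in BF BSHhigh mice.

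Genes whose pattern over the 6 groups was most like each claudin were found by the root mean square difference of centred group means of log2(CPM + 0.5) among 14401 genes. For Cldn4 they were Rec8 (0.17) and Slc9a4 (0.19), for Cldn15 Fa2h (0.22), and for Cldn8 Ighg1 (0.16) and Gm48809 (0.18). For Cldn14 they were the immunoglobulin segments Ighv5-17 (0.21) and Ighv2-2 (0.24). Cldn3 was closest to Atp5j2 (0.02) and Fez2 (0.05), and Cldn7 to Uqcr11 (0.02) and Abcd4 (0.04). For the rest they were Aatk and Trabd2b (Cldn1), Zfp786 and E430024I08Rik (Cldn2), Camkmt and Gmppb (Cldn12) and Mal2 and Rsrp1 (Cldn23), at 0.06 to 0.19. The likeness rests on 6 group means and carries no test.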

How the data were processed

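Colon RNA was sequenced in 23 libraries of 6 groups. The authors used Cutadapt for trimming, STAR for alignment to mm10 and RSEM for counting, and deposited expected counts per gene without normalization. Of these values 4.24% are fractional, because RSEM divides ambiguous reads. All gene identifiers and symbols match the GRCm38 annotation used here. The row of Fgf6, with text in 1 cell, was not used. Expected counts were rounded and tested in R 4.3.3 by the quasi-likelihood method of edgeR 4.0.16, with TMM scaling and filterByExpr, over all genes that passed the filter. Benjamini-Hochberg adjusted p-values under 0.05 were called. Contrasts of the strains held the 2 groups compared. The tumor contrasts and their difference used the 15 libraries of 12 weeks, and the contrasts of 12 with 2 weeks used the 16 libraries without tumors. Levels are TMM-scaled CPM over all libraries.

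All 10 claudins are named in every comparison, other claudins where a group reached a mean of 1 CPM (Cldn18 was named after its values were seen), and of each junction list up to 5 called genes in each direction with the most extreme fold changes. For each claudin the 2 genes with the most similar pattern are named, except 1 gene that is not reported here. The members and lists were chosen with earlier results of these data known. Alternatives were DESeq2 1.42.0, limma-voom (limma 3.58.1), scaling by RLE, by library size or by 10 epithelial markers, no filter, 1 fit of all libraries, a block by replicate number, and the omission of each library in turn. Replicates differed beyond sampling noise (chi-square per degree of freedom 16.6 to 126 in 33 pairs), and none were merged. The tests were checked on simulated counts.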

Additional observations from a re-analysis of the deposited data

Results flagged for a closer look

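The tumor contrast of Cldn14 differed between the strains, by 3.32 on the log2 scale (adjusted p = 0.0272 in edgeR). Cldn14 was at -6.27 in BF BSHlow and -2.94 in BF BSHhigh mice in that contrast, and 9 counts in all stand behind the level in BF BSHlow tumors. The call of a difference was lost in limma-voom and in most of the fits that left out a single library.

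In 50 groups of 4 libraries, 6 held a library that stood apart from the other 3 by Dixon's criterion, which chance gives in about 1 in 20 groups. Cldn2 was at 202 CPM in library 3 of BF BSHlow non-tumor colon, against 147 to 154 in the others. Cldn7 was at 518 CPM in library 2 of that group, against 594 to 601, the library with the highest smooth muscle marker sum (9368 CPM). In library 1 of BF BSHhigh non-tumor colon Cldn15 was at 139 CPM, against 75.7 to 83.7, and Cldn23 at 51.6 CPM, against 28.0 to 29.9. Cldn15 was at 3.78 CPM in BF BSHlow tumor 1, against 1.49 to 1.62. Cldn14 was at 0.143 CPM in BF BSHlow tumor 3 (3 counts), against 0.0977 to 0.103 (2 counts each).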

How the results depend on the processing

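The number of claudins called stayed within 1.5 times its value in the contrasts of tumor with non-tumor colon and of 12 with 2 weeks under every alternative. This number takes no account of direction or of which claudins are called. In BF BSHlow tumors it was 8 by TMM and 8 by epithelial markers. Under the latter Cldn1 and Cldn3 lost their call, Cldn2 and Cldn23 gained one, and Cldn7 and Cldn12 were called higher instead of lower. The number moved in the strain contrasts. In tumors, none was called in edgeR, 4 in DESeq2, 3 in the fit of all 23 libraries, 3 without the filter on low counts, 2 under scaling by epithelial markers (Cldn14 and Cldn15) and 0 to 3 when 1 library was left out, with 3 without BF BSHhigh tumor c. All genes called there were 78 in edgeR, 741 in DESeq2, 806 in the fit of all libraries, 344 without the filter, 260 by epithelial markers and 43 in limma-voom. In non-tumor colon DESeq2 called 1 claudin. All genes called by edgeR and DESeq2 were 0 and 194 in non-tumor colon, 1 and 52 at 2 weeks, 163 and 423 for the difference of the tumor contrasts (0 in limma-voom, 273 in the fit of all libraries) and 0 and 40 for the difference over time. The cause was not tested. The difference of the tumor contrasts was called for 1 claudin, 2 in DESeq2, 2 in the fit of all libraries, 0 in limma-voom and 0 to 3 when 1 library was left out (0 without any 1 of 8, 3 without BF BSHhigh tumor c). Scaling by epithelial markers turned the sign of tumor against non-tumor in BF BSHlow mice for Cldn3 (0.32), Cldn7 (0.47), Cldn12 (0.54) and Cldn23 (1.09) and in BF BSHhigh mice for Cldn3 (0.23), Cldn7 (0.46) and Cldn12 (0.11). That scaling assumes equal epithelial marker counts in each library, and under it 86.8% and 88.6% of all genes called were higher in tumors (BF BSHlow and BF BSHhigh), against 50.9% and 51.9% by TMM and 67.0% and 70.5% by library size. At 12 against 2 weeks the shares were 79.7% and 87.2%, 52.1% and 54.3%, and 74.2% and 78.5%. The summed claudin level in tumors over non-tumor colon was 1.09 and 0.99 by TMM, 1.35 and 1.22 by library size and 2.48 and 1.89 by epithelial markers. Of 1563 claudin values under alternatives, 7 turned with a call in at least 1 of the settings, 35 passed the threshold only under the alternative and 22 no longer passed it. The other 1499 stayed on their side of the threshold, and 52 of these, called in neither setting, changed sign.

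Replicate numbers did not pair the samples (correlations -0.21 to 0.30). With the number as a replicate block, the called claudins were 0 between strains in non-tumor colon and 0 at 2 weeks, 8 for tumors of BF BSHlow mice, and 7 and 7 for 12 against 2 weeks, where Cldn1 lost its call in BF BSHhigh mice. The fit of only the 2 groups compared, without the block, was added after seeing the data. Tumors of BF BSHhigh mice carry no number and were not blocked. Depth limits Cldn1 and Cldn14, whose levels rest on few counts.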
